A study of Mus musculus with 16 samples.

Results

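Gzmb, Gzmc, Gzmd, Gzme, Gzmf, Gzmg and Prf1 encode the proteins with which cytotoxic lymphocytes kill a target cell, and they are 7 of the 24495 gene symbols in these single-cell libraries. They were taken by symbol, as the granzymes and the perforin that earlier results of the same libraries had placed in tumors. Perforin, the product of Prf1, is stored in lytic granules and opens pores in the membrane of the target. Granzymes are serine proteases that pass into the target through those pores, where granzyme B, the product of Gzmb, cleaves caspases and their substrates and starts apoptosis. Gzmc, Gzmd, Gzme, Gzmf and Gzmg are rodent genes next to Gzmb on chromosome 14 whose proteases have substrates that are less well known. NK cells hold granzyme and perforin mRNA before they meet a target, whereas naive CD8 T cells gain most of it after activation.

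MC38 colon tumors were grown in Aire+/+ or Aire-/- mice of C57BL/6 background that were 8 weeks old, and Aire is the factor with which thymic epithelium displays antigens of other tissues to developing T cells. Each genotype received either an antibody that blocks PD1, a receptor that restrains T cells, or an isotype control, both at 5 mg/kg, and tissue was taken at day 19. Cells sorted as CD45+ or as CD8+ from the tumor and from the spleen of these 4 conditions gave 16 libraries, each from the pooled cells of several mice. With 1 library for each condition, tissue and sort, there are no replicates and no test between conditions was run. Where 4 values stand in a row, the Aire+/+ isotype library comes first, Aire+/+ with anti-PD1 next, then the Aire-/- isotype library and last Aire-/- with anti-PD1.

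The unique molecular identifiers (UMIs) of each gene, which count captured RNA molecules, were available for every cell. After removal of cells with fewer than 200 genes or over 20% mitochondrial UMIs, the CD45+ tumor libraries held 2930, 2208, 1856 and 2075 cells with 38930018, 28760725, 24639380 and 23282801 UMIs in all. The CD8+ tumor libraries held 2684, 2221, 1858 and 2212 cells with 35163283, 27052446, 22414026 and 23271163 UMIs. In the CD45+ spleen libraries there were 2095, 2088, 2023 and 2393 cells with 12131829, 10927395, 11179230 and 12618100 UMIs. In the CD8+ spleen libraries there were 2898, 2944, 2339 and 2629 cells with 20126142, 19167791, 15590033 and 16279428 UMIs. Tumor cells were therefore deeper than spleen cells, with a median of 11163.5, 10349, 10199 and 8883 UMIs per cell in the CD8+ tumor against 6405, 6304.5, 6282 and 5801 in the CD8+ spleen. Aire itself had 0, 2, 1 and 0 UMIs in the CD45+ tumor, 6, 3, 1 and 0 in the CD8+ tumor, 2, 5, 4 and 0 in the CD45+ spleen and 0, 0, 0 and 0 in the CD8+ spleen, too few to check the genotype labels. Any 2 libraries shared 2 to 18 cell barcodes, with a median of 7 over 120 pairs, and the 37453 cells carried 36578 distinct barcodes.

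Over all cells of a library, the 7 genes together were abundant in tumors and scarce in spleens. Levels are given as UMIs of the gene per 1000000 UMIs of the same cells (CPM). In the CD8+ tumor libraries Gzmb had 3336, 3523, 4026 and 4314 CPM and a UMI in 71.3, 75.8, 74.2 and 79.5% of the cells, and in the CD45+ tumor 676, 621, 1055 and 2584 CPM and 17.8, 20.3, 26.5 and 50.4%. The CD45+ tumor of Aire-/- anti-PD1 mice had the highest Gzmb level of its sort, and it was also the library with the most CD8 T cells, 159, 218, 226 and 744 over the 4 conditions. Gzmc was highest in the same library, with 1261, 1491, 1502 and 3335 CPM. NK cells, gated as described below, held 33193, 31818, 29373 and 51101 of its 49102, 42887, 36999 and 77641 UMIs. Prf1 was found in 8.50, 12.5, 18.6 and 37.4% of CD45+ tumor cells and in 62.6, 66.6, 67.4 and 65.6% of CD8+ tumor cells. The rise of Prf1 and Gzmb from the lowest to the highest CD45+ tumor library came with a change in the cells sampled, so that levels were next taken within cell types.

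In the spleen, Gzmb had 51.0, 19.1, 27.0 and 36.1 CPM over CD45+ cells and 25.4, 11.7, 78.7 and 61.9 CPM over CD8+ cells. Prf1 had 35.5, 20.9, 30.3 and 30.8 CPM over CD45+ cells and 36.2, 34.3, 47.2 and 49.02 CPM over CD8+ cells. These 2 genes were therefore present in every spleen library. Gzmc reached 4, 3, 3 and 19 UMIs in the CD45+ spleen and 7, 1, 1 and 0 UMIs in the CD8+ spleen, and Gzmf had 0, 0, 1 and 0 UMIs in the former and 3, 1, 1 and 0 in the latter. Gzmd, Gzme and Gzmg had 0 UMIs in all 8 spleen libraries. The description of the genes as tumor-restricted thus holds at this depth for Gzmd, Gzme and Gzmg and, but for a few UMIs, for Gzmc and Gzmf. It does not hold for Gzmb and Prf1, which most splenic NK cells carried, so the set is called by its genes here.

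Cell types were set by a few genes in each cell. CD8 T cells had a UMI of Cd3d, Cd3e or Cd3g and of Cd8a or Cd8b1, and NK cells had a UMI of Ncr1 or Klrb1c and none of the Cd3 genes. These gates took 2547, 2154, 1801 and 2188 CD8 T cells from the CD8+ tumor, 112, 132, 153 and 251 NK cells from the CD45+ tumor, 2799, 2870, 2292 and 2549 CD8 T cells from the CD8+ spleen and 84, 49, 56 and 55 NK cells from the CD45+ spleen. All 6 genes of the NK marker list had UMIs in the NK cells of the tumor, with a summed level of 3361, 3119, 3719 and 3615 CPM led by Tyrobp. Of the 7 CD8 T markers, Trac and Trbc2 are missing from the gene table. The 6 macrophage markers, led by Lyz2, summed to 858, 881, 704 and 146 CPM in tumor NK cells and to 751, 680.1, 783 and 272 CPM in CD8 T cells of the CD45+ tumor, against 10.9, 24.7, 36.6 and 58.2 CPM in CD8 T cells of the CD8+ tumor. These markers were lowest in both cell types of the Aire-/- anti-PD1 CD45+ tumor, and their part in the values of that library was not tested.

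**Figure D1:**
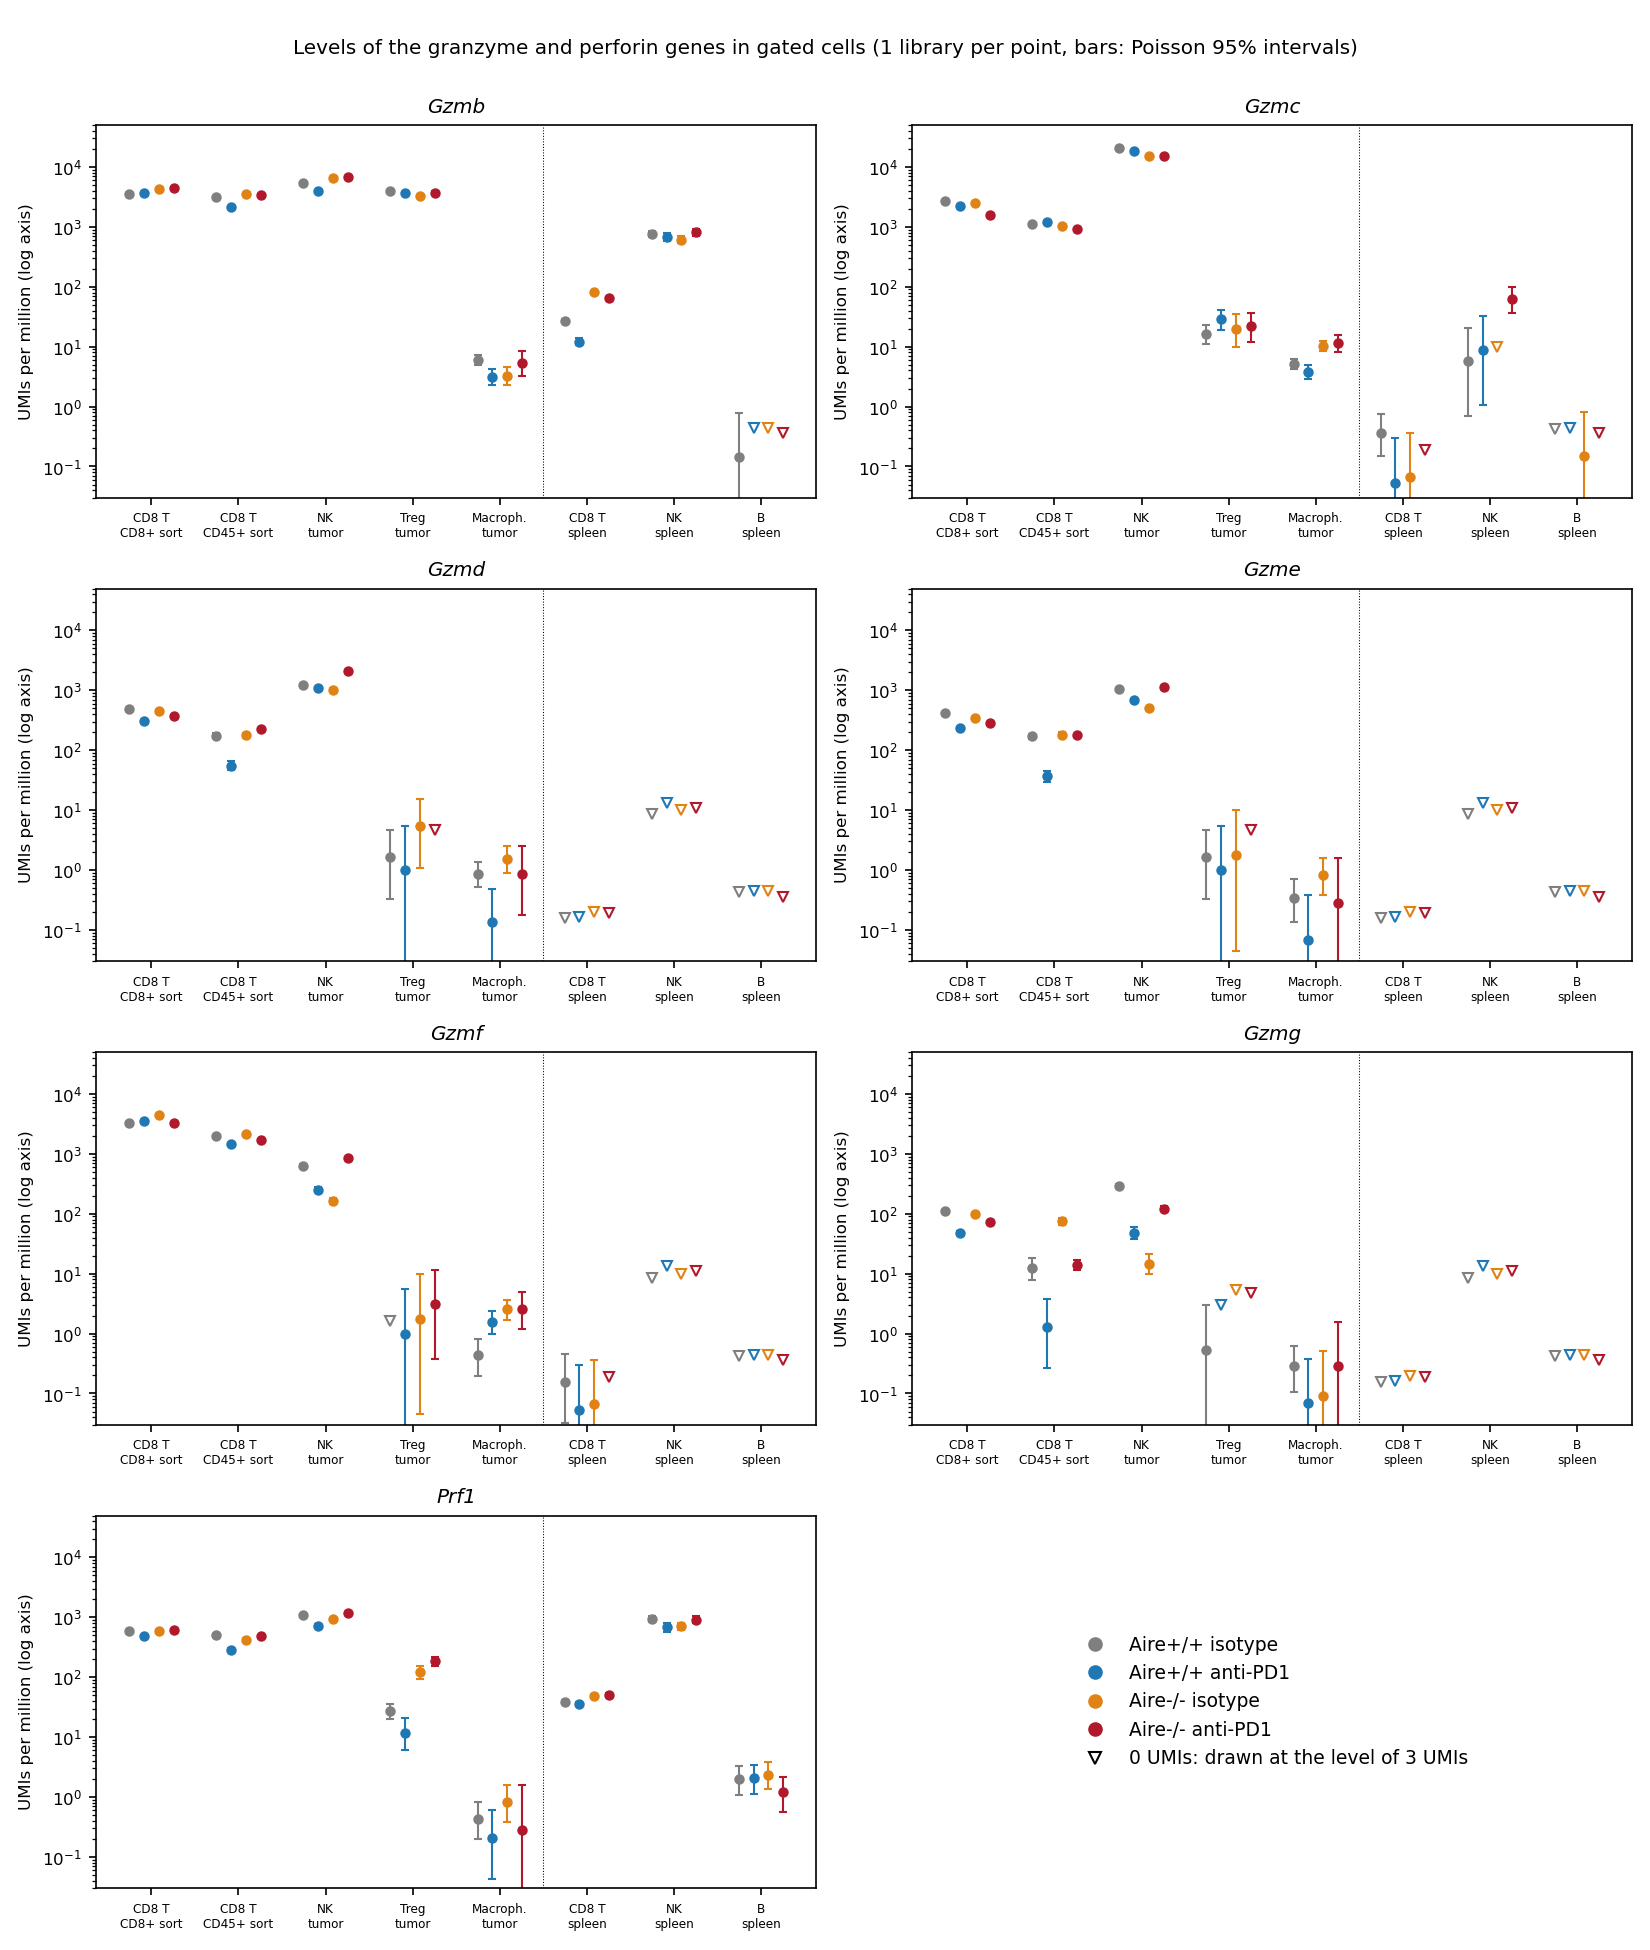
Level of each gene in CPM (log axis) by cell group and condition, with 1 point per library, exact Poisson 95% intervals for counting error as bars, and open triangles at the level of 3 UMIs where a library had 0. Gzmb runs from 3537 to 4363 CPM in tumor CD8 T cells of the CD8+ sort and from 3291 to 3976 CPM in tumor regulatory T cells, whereas Gzmc is highest in tumor NK cells at 14963 to 20886 CPM.

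Perforin mRNA was found in most CD8 T cells of the CD8+ tumor and in most NK cells of both tissues. In CD8 T cells of the CD8+ tumor, Prf1 had 597, 494, 581 and 622 CPM and was found in 65.8, 68.6, 69.4 and 66.2% of the cells, at a median of 11065, 10222.5, 10102 and 8860.5 UMIs per cell. The same cell type in the CD45+ tumor had 499, 286, 424 and 489 CPM of Prf1, in 47.8, 57.8, 64.6 and 62.6% of cells. The lowest of these 8 levels came from the Aire+/+ anti-PD1 CD45+ tumor. Tumor NK cells had 1075, 720.4, 931 and 1193 CPM, with Prf1 in 90.2, 86.4, 90.2 and 89.6% of cells. Splenic NK cells had 942, 678, 704 and 916 CPM and 86.9, 81.6, 92.9 and 90.9% of cells, at a shallower median of 3727, 3988, 4413 and 4360 UMIs against 9633.5, 8957.5, 9178 and 9479 in the tumor. The NK levels of Prf1 in tumor and spleen overlapped.

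Splenic CD8 T cells were low in Prf1, with 38.2, 35.4, 48.0 and 50.7 CPM in 20.8, 19.2, 23.9 and 24.2% of cells, and the highest count in a cell was 6, 4, 8 and 6. Splenic B cells, which should lack perforin and show what free RNA leaves, had 1.98, 2.06, 2.37 and 1.20 CPM of Prf1 in 1.02, 0.772, 1.14 and 0.593% of cells at medians of 4224, 4162, 4468 and 4284.5 UMIs. The splenic CD8 T shares were above those of these B cells in all 4 conditions, but the B cells come from the CD45+ libraries and are shallower. In the CD45+ spleen itself, CD8 T cells had Prf1 in 25.6, 19.7, 28.0 and 21.7% at medians of 6381.5, 5915, 6645.5 and 6066.5 UMIs. In tumor macrophages, with medians of 13718.5, 13719, 13509.5 and 11209 UMIs, Prf1 was found in 0.646, 0.302, 1.09 and 0.341% of cells. Tumor regulatory T cells, gated on a Cd3 and a Foxp3 UMI without Cd8a or Cd8b1, had 27.0, 11.9, 121 and 185 CPM of Prf1 from 50, 12, 68 and 117 UMIs. Over these libraries the Prf1 level was highest in NK cells of tumor and spleen, followed by tumor CD8 T cells, then by tumor regulatory T cells and splenic CD8 T cells, whose ranges overlap, then by splenic B cells and last by tumor macrophages at 0.435, 0.204, 0.823 and 0.284 CPM.

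Granzyme B reached high levels in CD8 T, NK and regulatory T cells of the tumor. CD8 T cells of the CD8+ tumor had 3537, 3649, 4210.4 and 4363 CPM of Gzmb, with a UMI in 74.6, 78.0, 76.3 and 80.3% of the cells. CD8 T cells of the CD45+ tumor had 3122, 2147, 3516 and 3434 CPM. The lowest of those 8 libraries was the Aire+/+ anti-PD1 CD45+ tumor. Tumor NK cells had 5412, 3934, 6588 and 6901 CPM of Gzmb and 91.1, 87.9, 92.8 and 91.2% of cells. In tumor regulatory T cells, numbering 153, 87, 43 and 73, Gzmb had 3976, 3604, 3291 and 3734 CPM and was found in 94.8, 89.7, 97.7 and 87.7% of cells, a share like that of NK cells. The Gzmb levels of regulatory T cells and CD8 T cells overlapped, and those of NK cells overlapped with both at their lower end.

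Gzmb was lower in spleen cells and in tumor macrophages. Splenic NK cells had 760.2, 674, 613 and 818 CPM, in 73.8, 69.4, 62.5 and 78.2% of cells, and splenic regulatory T cells had 63.3, 91.5, 63.9 and 62.4 CPM. Splenic CD8 T cells had 26.8, 12.1, 80.5 and 64.0 CPM, in 2.86, 2.37, 7.29 and 6.55% of cells. Tumor macrophages, the background for this tissue, had 6.03, 3.13, 3.29 and 5.40 CPM in 4.09, 2.11, 4.62 and 6.14% of cells, and splenic B cells had 1, 0, 0 and 0 UMIs in 1374, 1425, 1321 and 1686 cells. The share of splenic CD8 T cells with Gzmb was above that of these B cells, which come from the CD45+ libraries, in all 4 conditions. It rested on few cells. The 28, 29, 23 and 26 cells with the most Gzmb held 84.0, 76.3, 54.2 and 55.4% of all its UMIs in that gate, and the highest cell had 58, 14, 68 and 80.

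Granzyme C was far higher in NK cells than in CD8 T cells of the tumor. Tumor NK cells had 20886, 18425, 15317 and 14963 CPM of Gzmc, in 59.8, 56.8, 54.9 and 53.0% of cells. CD8 T cells of the same libraries had 1122, 1197, 1014 and 921 CPM, and those of the CD8+ tumor had 2735, 2258, 2459.6 and 1580.4 CPM in 43.3, 39.6, 37.1 and 30.3% of cells. The Gzmc ranges of the 3 groups did not overlap. Tumor regulatory T cells had 16.2, 28.8, 19.6 and 22.1 CPM, against 5.12, 3.81, 10.4 and 11.4 CPM in tumor macrophages, of which 6.74, 5.34, 13.5 and 10.2% had a UMI. Splenic NK cells had 2, 2, 0 and 17 UMIs of Gzmc and splenic CD8 T cells 7, 1, 1 and 0. The 17 UMIs in NK cells of the Aire-/- anti-PD1 spleen all came from 1 cell.

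Granzymes D, E and G had lower counts and a similar distribution over cell types. Gzmd had 490.0, 308, 450.1 and 371 CPM in CD8 T cells of the CD8+ tumor, in 16.5, 11.7, 12.7 and 10.6% of cells, and 1209, 1093, 1031 and 2065 CPM in tumor NK cells, in 21.4, 17.4, 20.3 and 17.1%. Gzme had 422, 238, 351 and 281 CPM in those CD8 T cells and 1047, 687, 498 and 1148 CPM in NK cells, in 15.5, 10.8, 12.5 and 11.2% and 20.5, 12.9, 15.0 and 15.1% of cells. Both were higher in NK cells in every condition. Gzmg had 113, 48.4, 99.3 and 73.4 CPM in CD8 T cells and 291, 47.5, 14.6 and 121 CPM in NK cells, in 5.54, 4.36, 5.55 and 3.38% and 8.04, 5.30, 6.54 and 6.37% of cells. Its NK range spanned that of CD8 T cells. Tumor macrophages had Gzmd in 1.29, 0.201, 2.17 and 1.02%, Gzme in 0.430, 0.101, 1.22 and 0.341% and Gzmg in 0.359, 0.101, 0.136 and 0.341% of cells, all below both lymphocytes. The CD8+ tumor has its own background in plasmacytoid dendritic cells, gated on Siglech without Cd3, which numbered 97, 37, 28 and 9. They had 2, 0, 0 and 0 UMIs of Gzmd and 0, 0, 2 and 0 of Gzme, the latter in 7.14% of the Aire-/- isotype cells. There were 3, 0, 0 and 0 UMIs of Gzmg, 18, 4, 3 and 0 of Gzmf and 11, 4, 2 and 1 of Gzmc. In Aire+/+ isotype mice that is Gzmg in 3.09% of these cells at 2.50 CPM, against 5.54% of CD8 T cells at 113 CPM, so that the background is nearer to CD8 T cells by share than by level. Gzmf was found in 16.5, 10.8, 10.7 and 0% and Gzmc in 11.3, 10.8, 7.14 and 11.1% of them. Tumor regulatory T cells had at most 3 UMIs of each of these genes and of Gzmf in any library, a level at which expression cannot be told from background.

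Granzyme F was the exception among the neighbours of Gzmb, since its level was higher in CD8 T cells than in NK cells. Gzmf had 3326, 3474, 4426 and 3223.5 CPM in CD8 T cells of the CD8+ tumor, in 34.5, 35.005, 32.3 and 28.5% of cells. Those of the CD45+ tumor had 1985, 1435, 2099.8 and 1687 CPM. Tumor NK cells had 636, 251, 166 and 855 CPM of Gzmf, below the CD8 T cells of their own library in all 4 conditions. The share of NK cells with Gzmf was 14.3, 14.4, 12.4 and 13.5%, against 0.646, 2.22, 3.80 and 3.07% of tumor macrophages. In each library a single NK cell held 504, 241, 158 and 884 of the 1010, 434, 318 and 2921 Gzmf UMIs, and a single NK cell held 180, 51, 17 and 195 of the 462, 82, 28 and 413 Gzmg UMIs. The NK levels of Gzmf and Gzmg therefore rest on 1 cell or a few in each library.

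The balance between Gzmf and Gzmc within a cell type separated the lymphocytes. For every 100 Gzmc UMIs there were 122, 154, 180.0 and 204 Gzmf UMIs in CD8 T cells of the CD8+ tumor and 177, 119.9, 207 and 183 in CD8 T cells of the CD45+ tumor. In tumor NK cells there were 3.04, 1.36, 1.08 and 5.72. Tumor macrophages, whose counts of both genes were low, had 8.49, 41.1, 24.6 and 22.5 Gzmf UMIs per 100 Gzmc UMIs, between NK cells and CD8 T cells in every condition. In the CD8+ sort the CD8 T value was lowest for Aire+/+ isotype and highest for Aire-/- anti-PD1, an order that the CD45+ sort did not share.

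Tumor CD8 T cells were compared with splenic CD8 T cells of the same condition to ask how far each gene differed between the tissues. The genes had been picked for this contrast, so their folds describe it and are no evidence for it. All 7 were at least 2-fold higher in the tumor in all 4 conditions, as were 14.9% of the 11666 genes with at least 10 UMIs over each pair, and nothing is read from that count. With CD8 T cells of the CD45+ libraries it was 6, since Gzmg had under 10 UMIs in a pair. The median log2 ratio was 10.66 over the 7 genes and 0.062 over all genes. The value of 10.66 depends on the floor of 3 UMIs used where the spleen had 0, and on depth, so it is no exact ratio. Prf1 was 15.6, 13.96, 12.1 and 12.3 times as high in the tumor, and Gzmb 132, 302, 52.3 and 68.2 times. Gzmb ratios were smaller in Aire-/- mice, whose splenic levels were higher. The Gzmc ratio was 7440.4 (3611 to 18507) in Aire+/+ isotype mice, with 7 splenic UMIs, and at least 8261 in Aire-/- anti-PD1 mice, with none. The parentheses hold the exact 95% interval, which like all intervals here covers counting error only, and a count of 0 was replaced by a floor of 3 UMIs.

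For Gzmd the tumor was at least 3111, 1902, 2284 and 1939.6 times the spleen, and for Gzme at least 2678, 1471, 1781 and 1468 times. These bounds scale with the UMIs counted, and with cells thinned to 2000 UMIs the log2 bound of Gzmd in Aire+/+ isotype mice was 9.12, against 11.60. The bound for Gzmg was 718, 299, 504 and 384. Gzmf, with 3, 1, 1 and 0 splenic UMIs, had a ratio of 21116 (7225 to 102393) in Aire+/+ isotype mice and of at least 16849.5 in Aire-/- anti-PD1 mice. With 0 UMIs of Gzmd, Gzme and Gzmg, the splenic CD8 T cells allow a share of cells with a UMI of up to 0.132, 0.128, 0.161 and 0.145% by the exact Clopper-Pearson interval. In NK cells the tissues differed less for the genes that splenic NK cells carry. Gzmb was 7.12, 5.84, 10.7 and 8.44 times as high in tumor NK cells as in splenic NK cells, and Prf1 1.14, 1.06, 1.32 and 1.30 times. Gzmc, with 2, 2, 0 and 17 splenic UMIs, was 3668 (1015 to 30287) times as high in Aire+/+ isotype and 2065 (572 to 17052.5) times in Aire+/+ anti-PD1 mice, and at least 1523 times in Aire-/- isotype mice. In Aire-/- anti-PD1 mice it was 242 (151 to 416) times as high.

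Tumor NK cells and CD8 T cells share a library in the CD45+ sort, which allows them to be compared without a difference between libraries. Of the 7 genes, 4 were at least 2-fold higher in NK cells in all 4 conditions, against 2.17% of the 9490 genes with enough counts. None was at least 2-fold lower in all 4, against 2.93% of those genes. The 4 were Gzmc at 18.6, 15.4, 15.1 and 16.2 times, Gzmd at 6.89, 19.8, 5.84 and 9.21 times, Gzme at 6.17, 18.5, 2.75 and 6.48 times and Prf1 at 2.16, 2.52, 2.197 and 2.44 times the CD8 T level. Gzmb reached the fold in 1 condition, with ratios of 1.73, 1.83, 1.87 and 2.01. Gzmf had ratios of 0.320, 0.175, 0.0790 and 0.507 and Gzmg of 23.8, 36.7, 0.196 and 8.66, and their NK values rest on few cells. Gzmd and Gzme rest on few NK cells too. Gzmd was found in 24, 23, 31 and 43 NK cells and Gzme in 23, 17, 23 and 38. A single NK cell held 335, 454, 423 and 989 of the 1922, 1888, 1977 and 7054 Gzmd UMIs. Without likely doublets the genes higher in NK cells fell to 2, Gzmc and Gzmd. The log2 ratio of Gzme in Aire-/- anti-PD1 mice was then 1.04, against 2.70 with them. It was still past the 2-fold, so that Gzme was lost through another condition. A stricter gate left 3, without Prf1, and with thinned cells or a mean over cells Gzmb passed and Gzme did not. Gzmf became the 1 gene higher in CD8 T cells in all 4 conditions when doublets were removed, cells were thinned or a mean over cells was taken. In the spleen the gap was wider for both genes that could be measured, with Gzmb at 36.9, 32.4, 8.95 and 28.9 times and Prf1 at 20.1, 18.9, 13.5 and 23.0 times the CD8 T level. The log2 median over the 7 genes in the tumor was 2.66, against -0.042 over all genes.

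Regulatory T cells differed from CD8 T cells of the same tumors in carrying Gzmb with little of the other members. Their Gzmb was 1.27, 1.68, 0.936 and 1.09 times the CD8 T level. Their Prf1 was 0.0542, 0.0416, 0.286 and 0.378 times and their Gzmc 0.0144, 0.0240, 0.0193 and 0.0240 times that level. Prf1 in regulatory T cells also came from few cells, with 53 of its 117 UMIs in the Aire-/- anti-PD1 tumor from a single cell. CD4 T cells without Foxp3 numbered 29, 35, 33 and 36 and had 3181, 1919.7, 888 and 941 CPM of Gzmb.

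Other genes of the killing machinery were set beside the 7, from lists of 4 other granzymes, 18 granule and release genes, 4 serpin inhibitors, 5 killing ligands, 15 regulators and 9 neighbours on chromosome 14. Of the 4 other granzymes tested between tumor and spleen in CD8 T cells, Gzmn was higher in all 4 conditions, with 0 splenic UMIs and bounds of at least 3.06, at least 3.31, at least 4.499 and at least 4.32 times. Gzmn had enough counts through the tumor alone, so that nothing is read from its call. Gzmm was lower, at 0.158, 0.184, 0.180 and 0.190 times, in the opposite direction to the 7 genes. Of 17 granule genes tested, 7 were higher and 0 were lower, against 14.9% higher and 7.59% lower of all genes. They include Nkg7, a granule membrane protein, at 3.97, 5.26, 3.82 and 3.95 times, Srgn, the proteoglycan that packs granule proteins, at 4.12, 4.60, 3.79 and 3.55 times, and Rab27a, which docks granules, at 3.19, 2.48, 2.60 and 2.79 times. Unc13d, which primes granules for release, had ratios of 0.997, 1.08, 1.13 and 1.05, and Lamp1 of 0.834, 0.821, 0.956 and 0.882. The 7 genes had been picked for this contrast, so their ratios are not ranked against those of the granule genes.

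All 4 serpins, a family of protease inhibitors, were higher in the tumor. Serpinb9, the mouse inhibitor of granzyme B, was 17.4, 37.9, 18.9 and 23.1 times and its relative Serpinb9b at least 418, at least 391, 257 and 256 times as high. Serpinb9b had no splenic UMI in either Aire+/+ condition. It had enough counts there through the tumor alone, so that nothing is read from its call. Of the killing ligands 5 of 5 were higher, among them Fasl at 33.6, 35.4, 16.4 and 18.5 times and Ifng at 172, 92.2, 137 and 105 times. Among 15 regulators 8 were higher and 1 lower, and the shares of all genes given for granule genes hold for these lists too. Prdm1, a repressor expressed by effector cells, was at 23.0, 18.3, 6.81 and 11.1 times, Irf4, a factor induced by the antigen receptor, at 16.9, 26.6, 20.5 and 13.4 times, and Il2ra, the alpha chain of the IL-2 receptor, at 38.5, 83.5, 55.8 and 29.6 times. Tcf7, a factor of naive and stem-like cells, was lower at 0.0715, 0.0477, 0.0730 and 0.0637 times. Of the 9 neighbours of the chromosome 14 genes only Mcpt8 had enough counts in CD8 T cells, and it was higher in the tumor. Between NK cells and CD8 T cells of the tumor, 0 of 17 granule genes passed the fold in either direction, whereas 2 of 4 serpins, Serpinb6b and Serpinb9, were higher in NK cells, against 2.17% of all genes higher and 2.93% lower. Of 15 regulators 1, Eomes, was higher in NK cells and Batf, Il2ra and Irf4 were lower. Of 5 killing ligands, Ifng was lower in NK cells at 0.263, 0.153, 0.166 and 0.223 times. Gzma was higher and Gzmk lower in NK cells, of 3 other granzymes with enough counts. Of the chromosome 14 neighbours only Cma1 had enough, and it was higher in NK cells, with 20, 28, 31 and 60 UMIs against 0, 1, 0 and 2 in CD8 T cells. Cma1 had enough counts through NK cells alone, so that nothing is read from its call.

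The 4 conditions were then compared within CD8 T cells of the CD8+ tumor, to ask how the genes differ with loss of Aire and with PD1 blockade. The 4 contrasts share libraries, so that each is described on its own and read against the share of all genes past the same 1.5-fold. Between genotypes under anti-PD1, 1 of the 7 genes was at least 1.5-fold higher in Aire-/- mice, against 6.44% of 12150 genes, and 0 were lower, against 4.95%. The gene was Gzmg, at a ratio of 1.51 (1.41 to 1.63) and with the lowest counts of the 7. A single cell held 502 of its 1688 UMIs in the Aire-/- library and 333 of 1265 in the Aire+/+ library, so that this call rests on few cells. Gzmb was at 1.20, Prf1 at 1.26, Gzmd at 1.21, Gzme at 1.18 and Gzmf at 0.928 times. Gzmc was farthest below 1, at 0.700 (0.691 to 0.709) times. It passed the fold downward with each cell thinned to 2000 UMIs, with a mean over cells and with a stricter gate. The median log2 ratio was 0.26 over the 7 genes and -0.0048 over all genes.

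Between genotypes under isotype, 0 of the 7 genes passed in either direction, against 4.73% of 12294 genes higher and 7.66% lower. Gzmf had the highest ratio, 1.33 times, and Gzme the lowest, 0.832 times. Gzmb was at 1.19 and Prf1 at 0.973 times. The median log2 ratio of the 7 was -0.12, against -0.037 over all genes. The 7 genes had ratios on both sides of 1 in this pair of libraries.

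Between anti-PD1 and isotype in Aire+/+ mice, 3 of the 7 genes were at least 1.5-fold lower, against 6.25% of 12327 genes, and 0 were higher, against 3.6%. These 3 were Gzmd at 0.628 (0.611 to 0.645), Gzme at 0.564 (0.547 to 0.581) and Gzmg at 0.428 (0.402 to 0.457) times. They are also the 3 that share the most transcript sequence. Gzmb at 1.03 and Gzmf at 1.04 were near 1. Gzmc at 0.826 and Prf1 at 0.827 were lower by less than the fold. The median log2 ratio of the 7 was -0.28, against 0.0027 over all genes. The cells with Gzmd, Gzme and Gzmg are a small share of the gate, so that these ratios rest on 419 cells with Gzmd in the isotype library and 253 in the anti-PD1 library. A single cell held 500 of the 3749 Gzmg UMIs of the isotype library. Without likely doublets the log2 ratio of Gzmg was -1.94, against -1.22 with them. For CD8 T cells of the CD45+ tumor, 4 of the 7 genes were at least 1.5-fold lower, these 3 and Prf1, against 11% of 10005 genes. In that sort Gzmd, Gzme and Gzmg rest on few cells. Gzmg had 23 UMIs in 3 isotype cells and 3 UMIs in 3 anti-PD1 cells. Gzmd was found in 12 isotype and 10 anti-PD1 cells, and Gzme in 12 and 13.

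In Aire-/- mice 1 of the 7 genes, Gzmc, was at least 1.5-fold lower with anti-PD1 than with isotype, against 3.84% of 12070 genes, and 0 were higher, against 5.45%. Its ratio was 0.643 (0.634 to 0.651). Gzmd at 0.824, Gzme at 0.801, Gzmf at 0.728 and Gzmg at 0.739 times were lower by less. Among CD8 T cells of the CD45+ tumor Gzmc did not pass, at 0.908 times, and the 1 gene that did was Gzmg at 0.187 times, against 7.97% of 11080 genes. The Gzmg ratio rests on few cells, with 208 UMIs in 6 isotype cells and 111 UMIs in 16 anti-PD1 cells. In the CD8+ sort the count rose to 3, Gzmc, Gzmf and Gzmg, after thinning or with a mean over cells, and to 2, Gzmc and Gzmg, without likely doublets. Gzmb was at 1.04 and Prf1 at 1.07 times. The median log2 ratio was -0.32 over the 7 genes and 0.031 over all genes. In the 2 treatment contrasts none of Gzmc, Gzmd, Gzme and Gzmg had a ratio above 1 in the CD8+ sort, under any alternative run on it. In CD8 T cells of the CD45+ tumor the ratio was above 1 for Gzmc in Aire+/+ mice, at 1.07, and for Gzmd in Aire-/- mice, at 1.27.

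CD8 T cells of the CD45+ tumor gave a second set of libraries from the same conditions, with 159, 218, 226 and 744 such cells. Under anti-PD1, the Aire-/- to Aire+/+ ratio there was 1.60 for Gzmb, 1.71 for Prf1 and 0.770 for Gzmc. It was 4.06 for Gzmd, 4.77 for Gzme, 1.17 for Gzmf and 10.8 (3.59 to 53.0) for Gzmg. The ratios of Gzmd, Gzme and Gzmg rest on few cells. Gzmg had 3 UMIs in 3 Aire+/+ cells and 111 UMIs in 16 Aire-/- cells. Gzmd was found in 10 Aire+/+ and 59 Aire-/- cells, and Gzme in 13 and 61. Thus 5 genes passed 1.5-fold upward in the CD45+ sort, against 10.3% of 11006 genes there, where 1 did in the CD8+ sort. Gzmc was below 1 in both sorts. The Aire+/+ anti-PD1 CD45+ tumor had the lowest Gzmd, Gzme, Gzmf, Gzmg, Gzmb and Prf1 of its sort. Its CD8 T cells had 680.1 CPM of macrophage markers against 272 in Aire-/- anti-PD1 mice, while both isotype libraries had more than 680.1. The part of these markers in the ratios was not tested. Under isotype, Gzmg was the 1 gene past the fold in this sort, at 6.09 (3.95 to 9.82) times, against 9.24% of 10175 genes. That call rests on 208 UMIs in 6 Aire-/- cells and 23 UMIs in 3 Aire+/+ cells.

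In splenic CD8 T cells, Gzmb and Prf1 had enough counts to be compared. Gzmb was at least 1.5-fold higher in Aire-/- than in Aire+/+ mice under both treatments, as were 7.72% of 11465 genes under anti-PD1 and 7.67% of 11414 under isotype. Its ratio with anti-PD1 was 5.29 (4.58 to 6.15) and with isotype 3.001 (2.70 to 3.33), the largest condition ratios of any of the 7 genes in the CD8+ sort. The number of cells with Gzmb went with it, at 80, 68, 167 and 167 cells. In CD8 T cells of the CD45+ spleen the ratio with isotype was 3.32 (2.05 to 5.61), and with anti-PD1 it was 1.36 (0.786 to 2.41), with an interval that includes 1. Prf1 was at 1.43 and 1.26 times in the CD8+ spleen, under the fold. With anti-PD1, splenic Gzmb was 0.450 times the isotype level in Aire+/+ mice and 0.794 times in Aire-/- mice. No share of all genes is given for these 2 contrasts, and 28 cells held 84.0% of the Gzmb UMIs of the Aire+/+ isotype library.

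NK cells of the tumor were compared between conditions for the 3 genes that many of them carry. The Aire-/- to Aire+/+ ratio was 1.75 for Gzmb, 1.66 for Prf1 and 0.812 for Gzmc under anti-PD1. Under isotype it was 1.22 for Gzmb, 0.867 for Prf1 and 0.733 for Gzmc. Gzmb and Prf1 were thus farther from 1 under anti-PD1 than under isotype, a difference that was not tested. No share of all genes past 1.5-fold is given for these NK contrasts, so nothing is read from which genes passed. The Aire+/+ anti-PD1 library had the lowest Gzmb and Prf1 in NK cells, at 3934 and 720.4 CPM, as in CD8 T cells of its sort. The Gzmc level of NK cells was lower in both Aire-/- libraries than in both Aire+/+ libraries. Of the 7 genes 3, Gzme, Gzmf and Gzmg, passed 1.5-fold between genotypes in opposite directions under the 2 treatments, against 3.29% of 9496 genes. The same 3 passed it between treatments in opposite directions in the 2 genotypes, against 3.52% of 9501 genes, and for all 3 this rests on few cells. A single NK cell held 359, 349, 152 and 898 of the 1664, 1187, 955 and 3920 Gzme UMIs. Macrophage markers were lowest in NK cells of the Aire-/- anti-PD1 tumor, and their part was not tested.

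How the UMIs of a gene were spread over cells set the members apart. In CD8 T cells of the CD8+ tumor, the 255, 216, 181 and 219 cells with the most Prf1 held 65.6, 62.4, 61.8 and 62.2% of its UMIs. The same number of cells held 63.9, 57.7, 58.9 and 56.4% of Gzmb, 85.8, 89.4, 89.6 and 94.5% of Gzmc and 88.5, 86.8, 87.0 and 94.6% of Gzmf. They held 98.4, 99.5, 99.5 and 99.8% of Gzmd and 98.6, 99.7, 99.4 and 99.6% of Gzme. The cells counted were most of those with Gzmd or Gzme, found in 10.6 to 16.5% of the gate, so that these shares had to be high. Gzmg was found in fewer cells than were counted. These 3 genes cannot be compared in this way. Gzmb and Prf1 UMIs were thus spread over more of the cells than those of Gzmc and Gzmf. Cells with Gzmf had a median of 22, 23, 44 and 17 Gzmf UMIs, while cells with Prf1 had a median of 4, 3, 3 and 4. In single cells Gzmf made up as much as 11.4% of all UMIs and Gzmb 7.99%.

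For co-detection each cell was thinned at random to 2000 UMIs, so that deep and shallow cells were equal. At that depth Gzmb was found in 60.6, 65.0, 65.4 and 69.2% of tumor CD8 T cells, Prf1 in 35.2, 35.4, 38.6 and 39.3% and Gzmc in 29.4, 24.7, 25.5 and 18.0%. All of these are below the shares before thinning, given with the levels of each gene. Gzmf was found in 23.1, 24.7, 24.0 and 19.5%, Gzmd in 10.3, 7.80, 8.33 and 7.40%, Gzme in 9.74, 6.17, 7.94 and 7.63% and Gzmg in 2.39, 1.25, 2.72 and 1.19%. In NK cells Gzmb was found in 87.5, 81.1, 85.6 and 86.1%, Prf1 in 69.6, 55.3, 66.7 and 70.9% and Gzmc in 50, 51.5, 49.02 and 41.8%. NK cells thus kept higher shares of these 3 genes than CD8 T cells at equal depth. Thinned NK cells had Gzmd in 16.96, 11.4, 10.5 and 11.6%, Gzme in 16.1, 8.33, 9.15 and 11.6% and Gzmf in 9.82, 3.79, 2.61 and 5.98%. With Gzmf in 11, 5, 4 and 15 cells and Gzmg in 6, 0, 1 and 7, these last genes were too rare for pairs in NK cells.

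Most thinned CD8 T cells held few members. None of the 7 was found in 26.9, 24.4, 24.7 and 22.3% of them and a single member in 29.4, 31.7, 29.4 and 33.8%, while all 7 were found in 31, 14, 21 and 12 cells. No Gzmc, Gzmd, Gzme, Gzmf or Gzmg was found in 62.9, 65.5, 65.4 and 71.8%. Cells with Gzmb or Prf1 and none of those 5 made up 36.0, 41.1, 40.8 and 49.4%, and the reverse, any of the 5 without Gzmb, 5.61, 4.27, 3.94 and 2.79%. The 5 genes were therefore found mostly in cells with Gzmb. The share with Gzmb or Prf1 alone was highest in Aire-/- anti-PD1 mice. Among thinned NK cells 7.14, 11.4, 3.92 and 7.17% had no member and 46.4, 34.8, 49.02 and 40.2% had 2. In regulatory T cells a single member was most common, at 75.8, 71.3, 76.7 and 72.6%.

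**Figure D2:**
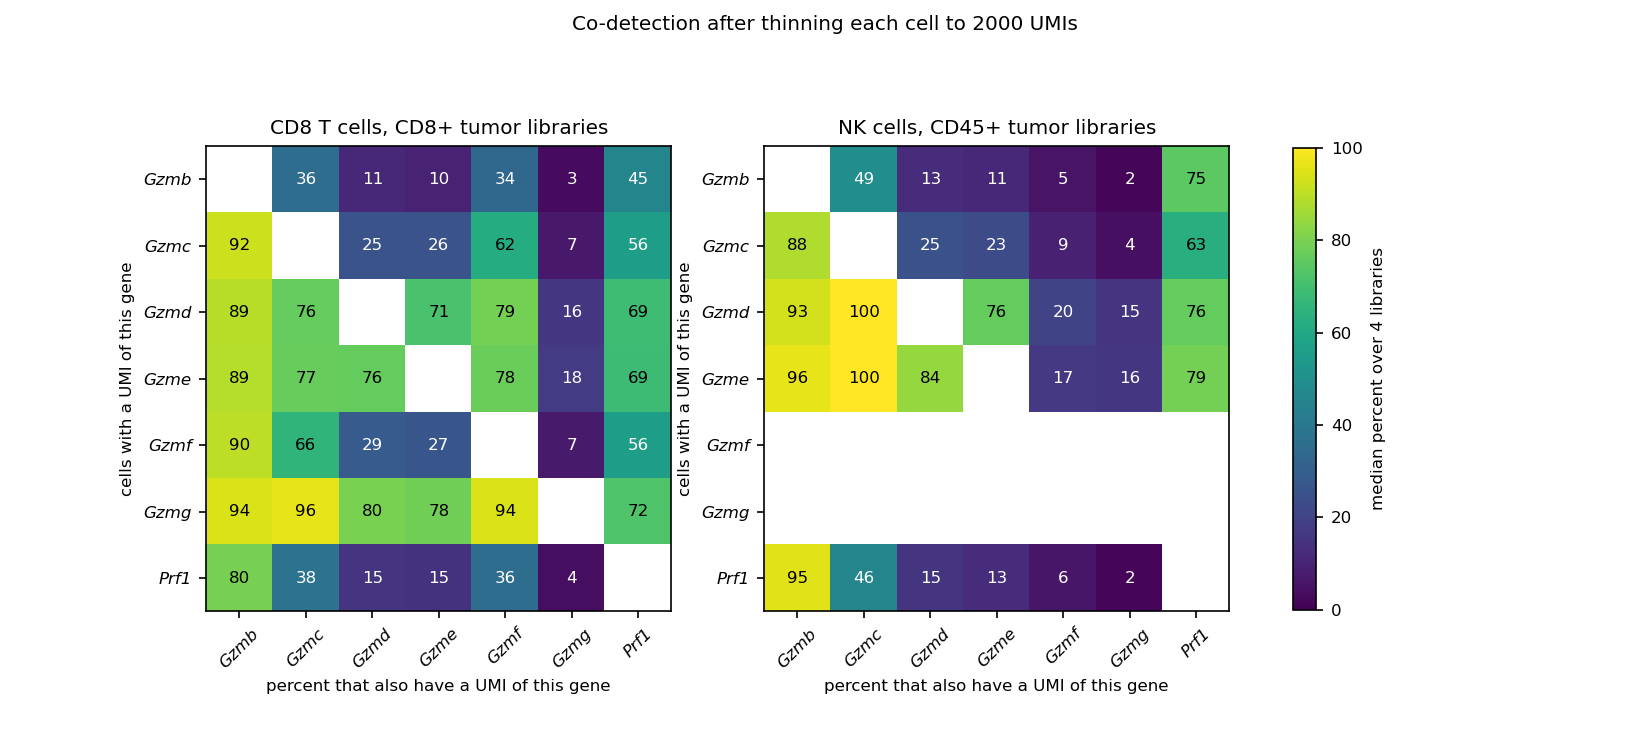
Share of thinned tumor cells with the gene of the row that also had the gene of the column, as the median over 4 libraries, in CD8 T cells and in NK cells, with blank entries where a library had under 10 cells with the gene. Among CD8 T cells nearly all Gzmg cells had Gzmb (91.8 to 100%), whereas few Gzmb cells had Gzmg (1.65 to 3.95%).

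Pairs of members occurred in the same CD8 T cell more often than their shares alone would give. The ratio of cells with both genes to the number that independence within the library would give was above 1 for all 21 pairs in all 4 libraries, and at least 1.5 in all 4 for 14 of them. It cannot exceed 1 over the share of cells with the commoner gene, so that no pair with Gzmb, found in 69.2% of thinned cells of Aire-/- anti-PD1 mice, could reach 1.5 in that library. Other gene pairs were not counted, and nothing is read from 14 of 21. The count was 15 of 21 at 1000 UMIs per cell, 19 of 21 with at least 2 UMIs as detected and 10 of 21 without thinning, where Prf1 too was in too many cells to allow 1.5 in all 4 libraries. Rare genes leave room for high ratios, and among Gzmd, Gzme and Gzmg there were 7.65 to 10.1 times for Gzmd with Gzme, 8.10 to 10.4 for Gzmd with Gzmg and 7.91 to 13.2 for Gzme with Gzmg over the 4 libraries. These 3 genes share transcript sequence, and the part of that in their co-detection was not tested. Gzmc with Gzmf came to 2.47 to 3.11 times, Gzmb with Gzmc to 1.38 to 1.46 times and Gzmb with Prf1 to 1.21 to 1.25 times. Cells are not replicates, so these are descriptions of each library.

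In CD8 T cells most cells with a rarer member also held Gzmb, and most Gzmg cells held Gzmc and Gzmf. The shares were not nested in general. Prf1 was commoner than Gzmf, yet was found in 52.4 to 60.9% of Gzmf cells. Of CD8 T cells with Gzmg, 91.8 to 100% had Gzmb, 84.6 to 96.7% had Gzmc, 86.9 to 97.96% had Gzmf and 69.2 to 75.5% had Prf1. Gzmc cells had Gzmb in 88.4 to 95.2%, Gzmf in 57.1 to 63.9% and Prf1 in 52.9 to 60.7%. Without Gzmc, 8.96 to 12.1% had Gzmf. In NK cells 3 of 10 pairs reached 1.5 times in all 4 libraries, and the other 7 hold Gzmb or Prf1, whose shares do not allow 1.5 in all 4. The 3 were Gzmc with Gzmd at 1.78 to 2.39, Gzmc with Gzme at 1.94 to 2.31 and Gzmd with Gzme at 5.24 to 7.51 times. With other depths and thresholds the pairs with enough cells changed too. It was 1 of 6 pairs at 1000 UMIs per cell, 1 of 6 with at least 2 UMIs as detected and 5 of 15 without thinning. NK cells with Gzmd had Gzmc in 87.5 to 100%, against 34.2 to 45.3% of the rest. Gzmb with Gzmc in NK cells was at 0.965 to 1.08 times, where the share of NK cells with Gzmb leaves little room for more.

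CD8 T cells with at least 2 UMIs of Gzmc, Gzmd, Gzme, Gzmf and Gzmg together after thinning were then set against cells with 0, in the same libraries, to see what else they expressed. There were 724, 566, 503 and 469 cells with, or 28.4, 26.3, 27.9 and 21.4% of the gate, and 1601, 1411, 1178 and 1570 without. The cells with these 5 genes had 3.82, 2.72, 2.46 and 2.33 times as much Gzmb and 3.09, 2.82, 2.59 and 2.61 times as much Prf1 per cell. Serpinb9b, a serpin, was 11.8, 7.95, 8.84 and 10.9 times as high. Havcr2, an inhibitory receptor of activated and exhausted cells, was 2.196, 1.56, 1.67 and 1.64 times as high, and Entpd1, an ectonucleotidase of such cells, was 1.51 to 2.35 times as high over the 4 libraries. Tnfrsf9, a costimulatory receptor of activated cells, was 1.56 to 1.96 times as high. Of the same list the other genes of such cells did not pass 1.5 upward in any library, with Pdcd1 at 1.11 to 1.44, Lag3 at 1.03 to 1.29, Ctla4 at 0.778 to 1.19, Tigit at 0.783 to 1.02 and Tox at 0.296 to 0.905 times. The direction of Gzmb, Prf1 and Serpinb9b was the same in all 4 libraries.

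Tcf7 and Slamf6, genes of less differentiated cells, were low where Gzmc to Gzmg were found. Tcf7 was at 0.0461, 0.0277, 0.0205 and 0.0536 times the level of the other cells, from 3, 1, 1 and 2 UMIs in the cells with Gzmc to Gzmg and 144, 90, 114 and 125 in those without. Slamf6, a receptor of stem-like T cells, was at 0.0366 to 0.130 times. Il7r, the IL-7 receptor of naive and memory cells, was closer to 1, at 0.657 to 0.803 times. Of the other granzymes Gzmk was at 0.214 to 0.483 times and Gzmm at 0.0921 to 0.478 times, whereas Gzma was at 0.620 to 1.18 times, on both sides of 1. Itgae, an integrin of tissue-resident cells, was at 0.210 to 0.343 times and the chemokine Ccl4 at 0.474 to 0.595 times. Gzmc to Gzmg thus marked CD8 T cells with more Gzmb and Prf1 and with less Gzmk, Tcf7 and Itgae. Mki67, which marks dividing cells, was at 1.10 to 2.30 times and passed 1.5 in 3 of 4 libraries.

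The same split in tumor NK cells, 53, 60, 62 and 97 cells with and 55, 63, 76 and 143 without, gave another pattern. Gzmb was 0.638, 0.621, 0.721 and 0.984 times as high in the cells with Gzmc to Gzmg, with the Aire-/- anti-PD1 value near 1, and Prf1 0.751, 1.24, 0.874 and 1.23 times. Gzma, a granzyme that most NK cells hold, was at 0.119, 0.255, 0.340 and 0.386 times. The chemokines Ccl3 and Ccl4 were at 0.0276 to 0.183 and 0.0309 to 0.128 times, and Ifng at 0.252 to 0.577 times. Klrb1c, which the gate uses, was itself lower at 0.275 to 0.438 times. Ncr1, the other gene of the gate, was at 0.6825 to 1.02 times. Cst7, a protease inhibitor of the granule pathway, was higher at 1.95 to 2.29 times, and so was Top2a, a gene of dividing cells, at 1.68 to 12.3 times. Of the inhibitory receptors Ctla4 was higher at 1.52 to 8.99 times and Lag3 at 1.14 to 6.44 times, past 1.5 in 3 of 4 libraries, and Tigit was lower at 0.233 to 0.441 times. Rab27a and Serpinb6a were higher in the 3 libraries with enough counts, at 1.74 to 3.81 and 1.72 to 3.50 times. Each ratio of this split comes from thinned cells and needed only 10 UMIs over both groups. Ratios far from 1 can thus rest on few UMIs. Gzmc to Gzmg thus went with more Gzmb in CD8 T cells and with ratios below 1 in NK cells, past 1.5-fold in 2 of the 4 libraries, a difference between the cell types that was not tested.

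The genes whose pattern over single CD8 T cells of the CD8+ tumor was most like the sum of Gzmc, Gzmd, Gzme, Gzmf and Gzmg were ranked by Pearson's r of log-scaled counts, as the median over the 4 libraries, among 8280 genes found in at least 5% of these cells in every library. They were Pglyrp1, AA467197, Irf8, Il1r2, Lat2, Cd244, Anxa2, S100a4, Upp1 and Pgk1, with r from 0.433 for Pglyrp1 down to 0.347 for Pgk1. On the same scale Gzmb had 0.451 and Prf1 0.408. Pglyrp1 is a peptidoglycan recognition protein and Irf8 a transcription factor. The genes at the other end were Ccl5, Itgb1, Itgb7, Btg1 and Zfp36l2, from -0.319 for Ccl5 to -0.281 for Zfp36l2. Cells of 1 library share their source and their depth enters every gene, so that r describes a likeness and nothing more.

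Over the 16 libraries, taking all cells, the 10 genes with the highest r with the same sum among 12806 genes were Ppp1r3b, Rbpj, Cox7a2, Odc1, Tnfaip3, Fam110a, Pim3, Hilpda, Nr4a2 and Cetn4. Tumor and spleen libraries form separate clusters for Gzmc to Gzmg, so that r over all 16 is used only to rank. The 8 tumor libraries may share mice between sorts. Within them r was 0.968 for Ppp1r3b, a regulator of glycogen synthesis, and 0.909 for Tnfaip3, an inhibitor of NF-kappaB. For Hilpda, a lipid droplet protein induced by hypoxia, r was 0.481. The level of Ppp1r3b was 26.1 to 46.7 CPM in tumors and 0.369 to 1.10 CPM in spleens. It was the closest of the 10 to the pattern of Gzmc to Gzmg within the tumor libraries. These libraries span both sorts, which hold different cells, and r was not taken within a sort.

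All granzymes of the set lie on the minus strand of chromosome 14, in the genome build GRCm38.p6 as RefSeq gives it. Gzmb is at chr14:56258836-56262334, followed by Gzmc at chr14:56231397-56241647, Gzmf at chr14:56205263-56211407, Gzmg at chr14:56156581-56159579, Gzmd at chr14:56129556-56132603 and Gzme at chr14:56117619-56120625. Gzmn, which is not among the 7, lies between Gzmf and Gzmg at chr14:56165786-56174612. Prf1 is apart from them on the plus strand at chr10:61297751-61304684. The order along the chromosome was not the order of level. Gzmf and Gzmc, next to each other, were in opposite ranks in CD8 T and NK cells by Gzmf UMIs per Gzmc UMI, and Gzmn between Gzmf and Gzmg had 16, 14, 19 and 19 UMIs in tumor CD8 T cells.

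**Figure D3:**
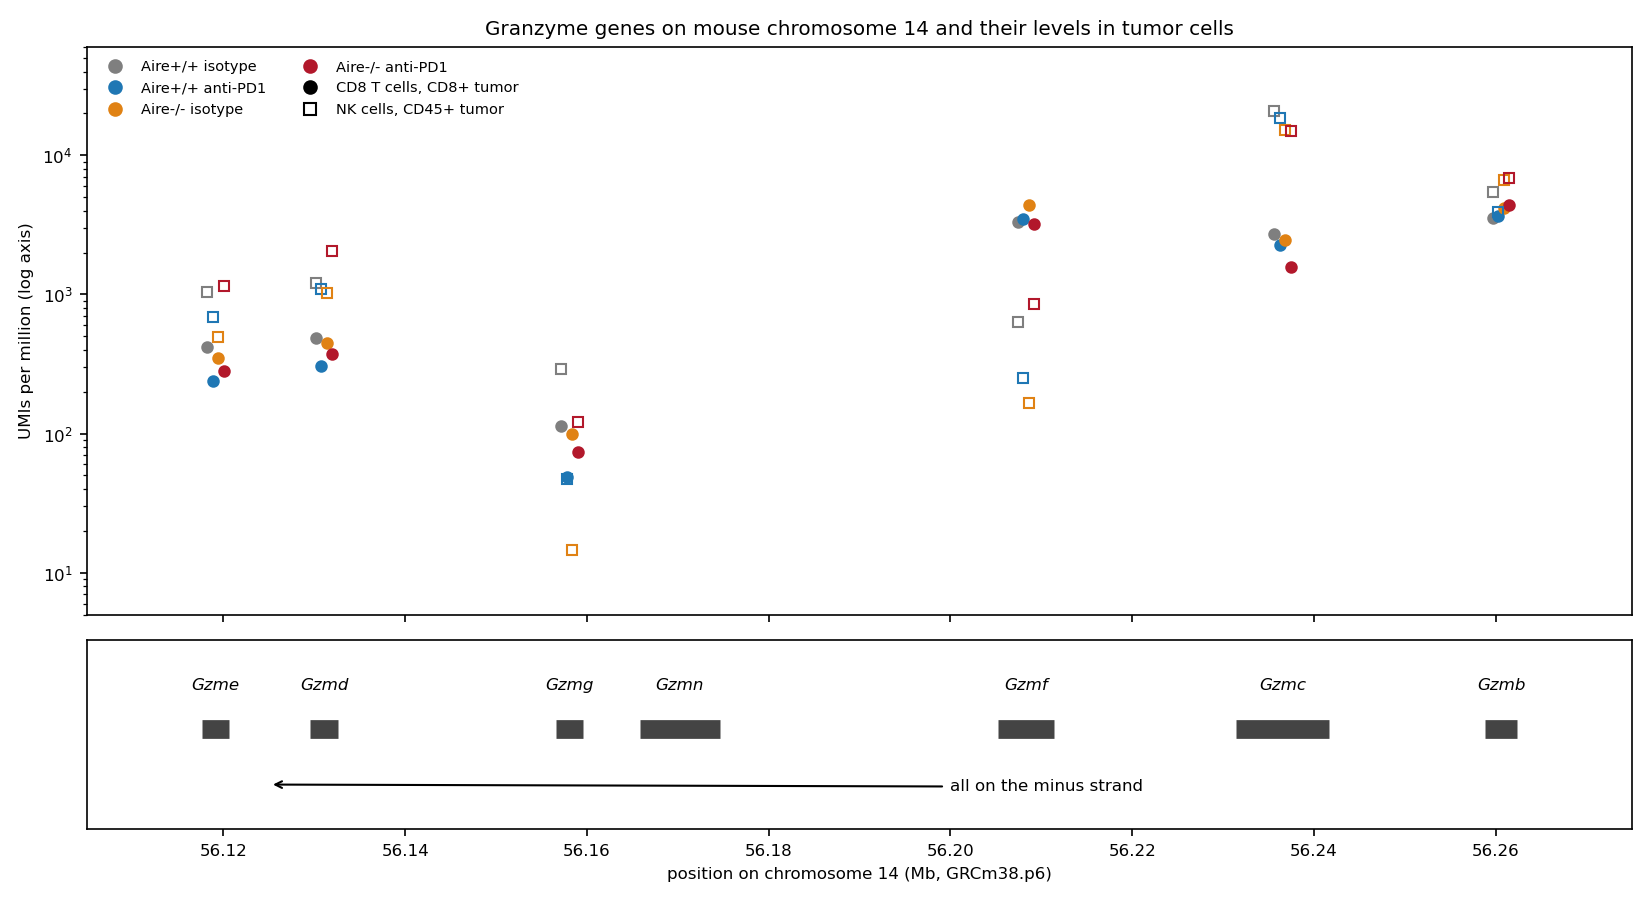
Map of the granzyme genes on chromosome 14 (position in megabases, GRCm38.p6) with the level of each gene in CPM (log axis) in tumor CD8 T cells of the CD8+ sort as filled points and tumor NK cells as open squares, 1 per condition. Gzmc is higher in NK cells (14963 to 20886 CPM) than in CD8 T cells (1580.4 to 2735 CPM), and Gzmf is lower (166 to 855 against 3223.5 to 4426 CPM).

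Several of these genes are alike in sequence, which limits how well their counts can be told apart. Windows of 55 bases were taken from the longest protein-coding transcript of each gene in the GENCODE annotation. Of these, 18.4% for Gzmd, 16.6% for Gzme and 16.8% for Gzmg occur in another gene too. The share was 5.66% for Gzmf and 2.62% for Gzmc, and no window of Gzmb or Prf1 was shared. In the last 500 bases it was 16.8% for Gzmd, 14.8% for Gzme, 11.7% for Gzmg, 6.05% for Gzmf and 0 for Gzmc. The last bases matter most for 3′ kits, which the labels name. The methods of the study describe 3′ libraries and, in another section, 5′ libraries. How reads of shared windows were assigned is not known. Levels of Gzmd, Gzme and Gzmg are thus less certain than those of Gzmb, Gzmc and Prf1.

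The promoters of Gzmb and of Gzmc to Gzmg are shown because these genes lie side by side and were found in the same cells while their balance differs between CD8 T and NK cells. The 150 bases before each start, from RefSeq on GRCm38.p6 and read on the minus strand, are chr14:56262335-56262484 for Gzmb, chr14:56234658-56234807 for Gzmc, chr14:56132594-56132743 for Gzmd, chr14:56120626-56120775 for Gzme, chr14:56211408-56211557 for Gzmf and chr14:56159580-56159729 for Gzmg. Capitals mark matches to RUNX (TGTGGT), AP-1 (TGANTCA) and CRE (TGACGTCA), searched on both strands in the wider 300 bases that run past the start.
Gzmb: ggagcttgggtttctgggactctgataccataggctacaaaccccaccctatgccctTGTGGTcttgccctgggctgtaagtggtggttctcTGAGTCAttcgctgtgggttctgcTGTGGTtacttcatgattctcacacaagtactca
Gzmc: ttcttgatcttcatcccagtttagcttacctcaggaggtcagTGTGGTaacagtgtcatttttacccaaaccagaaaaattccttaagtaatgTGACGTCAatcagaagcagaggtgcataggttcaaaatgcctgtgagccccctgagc
Gzmd: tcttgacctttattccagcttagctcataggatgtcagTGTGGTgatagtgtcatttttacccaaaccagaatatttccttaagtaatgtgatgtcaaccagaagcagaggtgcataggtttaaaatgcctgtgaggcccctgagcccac
Gzme: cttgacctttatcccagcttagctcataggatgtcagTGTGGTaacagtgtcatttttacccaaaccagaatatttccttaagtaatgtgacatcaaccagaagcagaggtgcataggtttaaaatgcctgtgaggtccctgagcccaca
Gzmf: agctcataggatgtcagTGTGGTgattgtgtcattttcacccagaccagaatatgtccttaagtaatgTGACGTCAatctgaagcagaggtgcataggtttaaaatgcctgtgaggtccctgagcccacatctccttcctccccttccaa
Gzmg: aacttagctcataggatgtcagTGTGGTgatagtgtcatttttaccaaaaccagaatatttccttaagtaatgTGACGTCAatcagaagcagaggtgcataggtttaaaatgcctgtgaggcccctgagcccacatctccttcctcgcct
The RUNX letters were found in the 300 bases of all 7 genes, and in 16.8% of 32851 RefSeq promoters of that length. The CRE letters were found for Gzmc, Gzmf and Gzmg, and in 1.79% of all promoters. AP-1 was found for Gzmb and in 7.81% of all, and STAT (TTCNNNGAA) for Gzmb, past the part shown, and in 8.30% of all. The T-box letters TCACACC were found for none of the 7 and in 3.98% of all promoters. The same held for the letters TATAAA, found in 13.6% of all. The promoters of Gzmc, Gzmd, Gzme, Gzmf and Gzmg have a stretch of 20 bases in common, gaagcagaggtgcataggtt, whereas the longest they share with that of Gzmb has 7. The starts used for Gzmc and Gzmd lie inside the spans annotated for these genes. A match is a run of letters, and binding was not measured.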

How the data were processed

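The authors deposited UMI counts, whole numbers for each gene and called cell, made with Cell Ranger from libraries that the labels describe as 3′ kits, on GRCm38. Table entries were summed by symbol, and the cell filter of the study was kept, at 200 genes and 20% mitochondrial UMIs. In the Aire-/- isotype CD45+ tumor it left 1856 cells, slightly more than the study gives. No doublets were removed in the main values. An alternative removes the 2% deepest cells and T cells with a UMI of Cd79a or a C1q gene. The 7 genes and all lists were chosen with earlier results of these data known. Levels are summed UMIs per 1000000, with exact Poisson intervals. Shares have Clopper-Pearson intervals and ratios conditional exact intervals, all at 95%. Ratios needed 10 UMIs over a pair. A ratio was called past 2-fold between tissues or cell types and past 1.5-fold between conditions, with no p-value. Thinning to 2000 UMIs used random seed 0. Genes named beside the 7 come from fixed lists, or are the 10 with the highest Pearson's r. One gene of these lists is not reported here. The alternatives were no cell filter, thinning, a mean over cells, the 7 genes left out of the total, a stricter gate, doublets removed, all cells, and the CD45+ sort. The code was tested on simulated data. Python 3.11.15, numpy 2.4.6, scipy 1.17.1 and pandas 2.3.3 were used.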

Additional observations from a re-analysis of the deposited data

Results flagged for a closer look

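In tumor NK cells, 3 of the genes passed 1.5-fold in opposite directions under the 2 treatments and in the 2 genotypes, against 3.29 and 3.52% of all genes. None of these differences was tested, since each group has 1 library, and the NK counts of Gzme, Gzmf and Gzmg rest on few cells. Gzme was found in 23, 17, 23 and 38 NK cells over the 4 conditions. Aire-/- over Aire+/+ gave Gzme a log2 ratio of 0.74 with anti-PD1 and -1.07 with isotype. For Gzmf it was 1.77 with anti-PD1 and -1.94 with isotype, and for Gzmg 1.35 and -4.32. The log2 ratio of anti-PD1 over isotype was -0.61 in Aire+/+ and 1.20 in Aire-/- mice for Gzme. It was -1.34 and 2.37 for Gzmf, and -2.61 and 3.05 for Gzmg. These ratios use the same 4 libraries, so they are not separate observations. In tumor regulatory T cells, the log2 ratio of anti-PD1 over isotype for Prf1 was -1.18 in Aire+/+ and 0.61 in Aire-/- mice, from 12 to 117 UMIs per library, and that difference was not tested either.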

How the results depend on the processing

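Of 84 log2 ratios of the 7 genes (tumor over spleen, between conditions, and NK over CD8 T cells), 57 were past their fold. Without the cell filter or with the 7 genes left out of the total, all 57 stayed past it. Thinning and a mean over cells each kept 56 and added 7, a stricter gate kept 56 and added 1, and removal of doublets kept 54 and added 3. With all cells of the CD8+ libraries, 33 of 33 stayed, and with CD8 T cells of the CD45+ libraries 31 of 32 stayed and 6 were added. None of the called ratios changed sign. The largest shift in log2 was 4.04 with thinning and 7.36 with the CD45+ libraries. Some counts moved, and the cause was not tested. The genes higher in tumor than spleen went from 7 to 6 in CD8 T cells of the CD45+ libraries, where Gzmg had too few UMIs in a pair. The genes lower in Aire-/- mice under anti-PD1 went from 0 to 1 with thinning, a mean over cells or a stricter gate. The genes lower with anti-PD1 in Aire-/- mice went from 1 to 3 with thinning or a mean over cells, and to 2 with doublets removed. In CD8 T cells of the CD45+ libraries the genes higher in Aire-/- mice went from 1 to 5 under anti-PD1 and from 0 to 1 under isotype. The genes higher in CD8 T than NK cells went from 0 to 1 with thinning, a mean over cells or doublets removed, and those higher in NK cells from 4 to 2 with doublets removed. The NK pairs went from 3 of 10 to 1 of 6 at 1000 UMIs or with at least 2 UMIs as detected, and to 5 of 15 without thinning. The CD8 T pairs went from 14 of 21 to 15, 19 and 10 in the same order of settings. In the main setting the CD8 T count is capped by the share of Gzmb and the NK count by the shares of Gzmb and Prf1. Without thinning the share of Prf1 caps the CD8 T count too. Splenic NK values rest on 49 to 84 cells, which can miss a rare transcript.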

Other observations

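CD4 T cells of the Aire+/+ isotype tumor, 29 in all, had 2695 UMIs of Gzmc from 5 cells, and 713 UMIs of Gzmd and 230 of Gzmg from 1 cell each. These cells are too few for a comparison between conditions.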
